A study of Mus musculus with 8 samples.

Results

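The genes described here make, fold, process and quality-control proteins that enter the secretory pathway, together with the regulators of the unfolded protein response. They were 39 genes fixed by symbol, chosen with earlier results of these data known. All 39 were found among the 19884 genes of the count table. RNA came from adult (6 to 10 weeks old) wild-type C57BL/6J female mice mated with fertile males and killed on gestation day 4, with blastocysts present in the uterine flush and no treatment. Whole brain (4 libraries) was compared with whole uterus (4 libraries), and each library was made from total RNA with ribosomal RNA removed. The labels call them separate animals within an organ but do not say whether brain and uterus came from the same mice.

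Proteins destined for secretion or for membranes enter the endoplasmic reticulum (ER) through the Sec61 channel, lose their signal peptide, receive sugars and fold with the help of chaperones and disulfide isomerases. Chains that fail to fold are marked, pulled back to the cytosol and degraded. When unfolded chains build up, the sensors IRE1 (gene Ern1), ATF6 and PERK start the unfolded protein response (UPR), which raises the folding and degradation machinery through the transcription factors XBP1, ATF6 and ATF4. Around implantation the uterus holds secretory glands and a stroma that lays down matrix, while the brain holds neurons and glia with a large load of membrane proteins.

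Library totals were 40115616 to 47790178 counts in brain and 35394603 to 40254254 in uterus. Values are CPM, counts scaled to a common total on library sizes adjusted by TMM, a trimmed-mean scaling. Levels are mean ± SD over 4 libraries, log2 fold changes (uterus over brain) and differences of ratios (uterus minus brain) are ± SE, and p-values adjusted over all genes are edgeR's. Gene positions are those of GENCODE M21 on GRCm38. Neuron markers (7 genes) summed to 6328 to 6537 CPM in brain and 8.23 to 11.8 CPM in uterus. Uterine stroma markers (7 genes) summed to 8968 to 11141 CPM in uterus and 147 to 149.8 CPM in brain, so the organ labels fitted their markers in all 8 libraries. In whole organs, fewer cells of a type and less RNA per cell cannot be told apart, and this holds for every difference below.

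Most of the secretory machinery was higher in uterus than in brain. Of the 39 members, all of which passed the filter on low counts, 32 were higher in uterus, 4 were higher in brain and 3 were not called (edgeR quasi-likelihood test, adjusted p under 0.05). Over all 16074 genes tested, 87.0% were called, 43.5% higher in uterus and 43.6% higher in brain, so the share of members called (36 of 39) is near the background, and 32 of these 36 were higher in uterus. Against a 2-fold change, 21 members passed higher in uterus (background 23.5%) and 0 higher in brain (background 25.8%). By the same edgeR test, 0 members toward brain had an unadjusted p under 0.05 against a 2-fold change. All 4 uterus libraries lay above all 4 brain libraries for 31 members (background 42.0%) and below them for 4 (background 42.0%). The members' median log2 fold change, uterus over brain, was 1.30, beside 0.012 over all genes tested. The genes were chosen with earlier results of these data known, so these comparisons with the background are descriptions. Summed over the 39 members, the level was 4118 ± 68.9 CPM in brain and 8795 ± 443 in uterus (SD, n = 4).

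**Figure D1:**
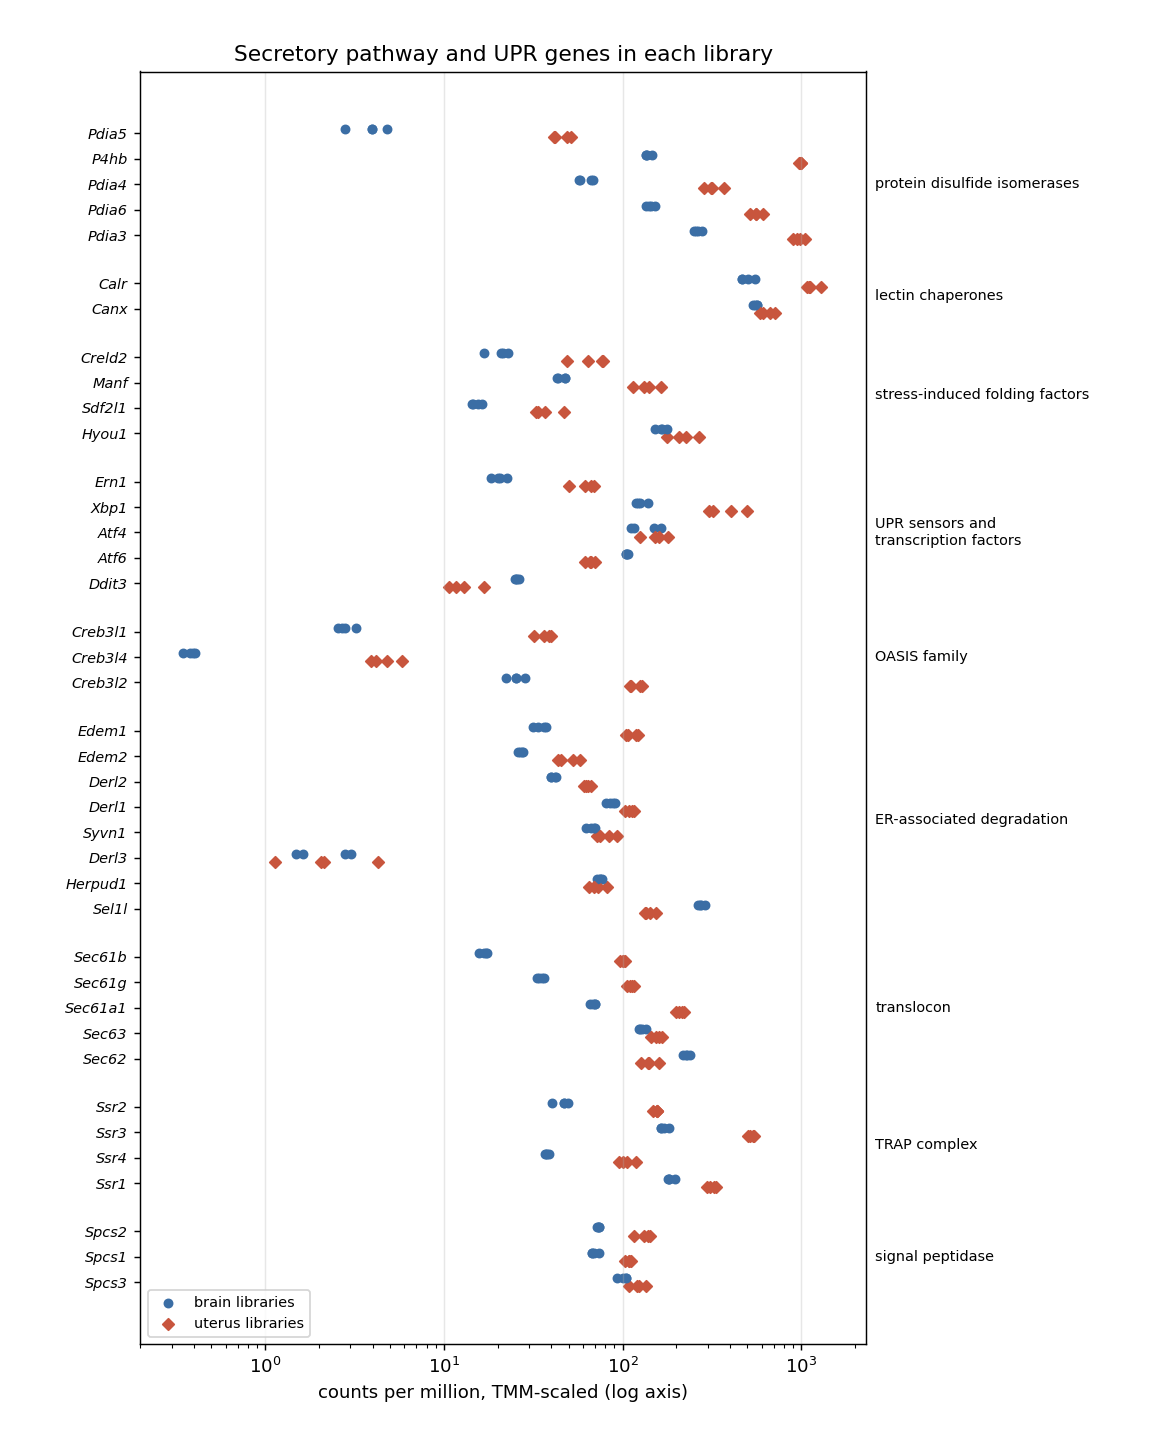
CPM (TMM-scaled, log axis) of the 39 genes in the 4 brain libraries (circles) and the 4 uterus libraries (diamonds), grouped by role. Uterus points lie to the right for most genes, while Atf6, Ddit3, Sel1l and Sec62 lie to the left, and Atf4, Herpud1, Derl3 and, barely, Hyou1 overlap.

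Promoter sequence was looked at for the motif that ties such genes to the UPR, the ER stress response element (ERSE), which ATF6 and XBP1 recognise. It was searched as CCAAT, any 9 bases, then CCACG, on both strands, from 250 bases before to 50 bases after the RefSeq start (GRCm38.p6). Promoters were matched by symbol for 31 of 39 members, and none for Atf6, Creb3l1, Derl1, Hyou1, Manf, Sec61a1, Spcs3 and Ssr2. These 31 are 79.5% of the members, below the 80% set for reading a property over a list, so the matches describe single genes only. The motif stood in 6 members, Calr, Canx, Pdia6, Creld2, Syvn1 and Derl3. Over the whole promoter table it stood in 37 of 27025 genes (0.137%) and 39 of 32851 promoters (0.119%). The related ERSE-II, searched as ATTGG, any 1 base, then CCACG, stood in Herpud1. It stood in 12 genes (0.0444%) and 12 promoters (0.0365%) of the table. The windows below are printed because they carry these matches, with 30 bases on each side where the upstream part allows. Capitals mark the match, and letters run 5′ to 3′ on the strand of the gene.
Calr, chr8:84847045-84847123, minus strand: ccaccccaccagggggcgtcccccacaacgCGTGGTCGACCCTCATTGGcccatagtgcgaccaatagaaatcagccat
Canx, chr11:50325770-50325848, minus strand: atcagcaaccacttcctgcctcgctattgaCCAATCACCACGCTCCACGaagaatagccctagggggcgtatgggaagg
Pdia6, chr12:17266461-17266539, plus strand: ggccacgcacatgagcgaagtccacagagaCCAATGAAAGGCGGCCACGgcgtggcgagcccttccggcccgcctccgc
Creld2, chr15:88819490-88819568, plus strand: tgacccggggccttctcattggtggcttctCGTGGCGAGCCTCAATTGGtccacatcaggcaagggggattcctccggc
Syvn1, chr19:6046502-6046575, plus strand: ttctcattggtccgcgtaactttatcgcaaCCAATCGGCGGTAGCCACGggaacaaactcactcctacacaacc
Derl3, chr10:75893212-75893290, plus strand: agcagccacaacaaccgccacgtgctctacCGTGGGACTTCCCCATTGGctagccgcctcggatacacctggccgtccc
Herpud1, chr8:94386347-94386417, plus strand: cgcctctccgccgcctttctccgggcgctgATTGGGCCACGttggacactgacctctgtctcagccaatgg
Counted from the RefSeq start, with the last base before it as -1, the match spanned bases -162 to -144 in Calr, -145 to -127 in Canx and -98 to -80 in Pdia6. It spanned -126 to -108 in Creld2, -44 to -26 in Syvn1, -156 to -138 in Derl3 and, for ERSE-II, -52 to -42 in Herpud1. In Calr, Creld2 and Derl3 the motif reads on the opposite strand, so its printed letters begin with the reverse complement of CCACG. Among members no match overlapped another. The organ differences of these 7 genes ranged widely, with log2 fold changes from -0.045 ± 0.071 for Herpud1 and 0.11 ± 0.40 for Derl3 to 1.70 ± 0.15 for Creld2 and 1.97 ± 0.067 for Pdia6. The UPRE core TGACGTG stood in 0 of the 31 members, 2.22% of all genes in the promoter table and 2.01% of all promoters. Of 142 genes of the wider lists with a promoter, 16 held it. The amino acid response element of ATF4, searched as TGATG, any 1 base, then AA, stood in 1 member, Herpud1. It stood in 4.51% of all genes in the promoter table, 3.97% of all promoters and 11 of the 142 wider genes. A match is a stretch of letters and not a bound site.

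Protein disulfide isomerases, which form and rearrange the disulfide bonds of secreted proteins, were higher in uterus as a family. All 5 were called in that direction and all 5 passed the 2-fold test, with a median log2 fold change of 2.36. P4hb (ENSMUSG00000025130, chromosome 11, 120560298 to 120573253) encodes the founding isomerase, which is also the beta subunit of the collagen prolyl 4-hydroxylase. It stood at 136, 147, 137 and 135 CPM in brain libraries 1 to 4 and at 995, 995, 982 and 971 CPM in uterus libraries 1 to 4. The organs were far apart and the 4 uteri lay within a narrow band. The log2 fold change was 2.83 ± 0.054 (SE, n = 4 and 4; edgeR adjusted p = 2.0e-11). Pdia5 (ENSMUSG00000022844, chromosome 16, 35397312 to 35490873), an isomerase linked to the activation of ATF6, had the lowest level per kilobase of the family in both organs. It stood at 2.78, 3.97, 4.83 and 3.97 CPM in brain and 48.7, 51.4, 41.4 and 42.0 CPM in uterus, a log2 fold change of 3.56 ± 0.15, with no overlap between the organs.

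The other isomerases differed less. Pdia3, which works with calnexin and calreticulin on glycoproteins, was 262 ± 11.4 CPM in brain and 972 ± 63.5 in uterus (1.89 ± 0.066). Pdia4 was 62.3 ± 5.71 and 320.2 ± 34.1 (2.36 ± 0.093), and Pdia6, which also acts on the IRE1 sensor, 143 ± 7.44 and 563 ± 39.4 (1.97 ± 0.067). The shares within the family changed with the organ. Per kilobase of exon, Pdia3 made up 42.3% ± 0.975 of the 5 levels in brain and 32.4% ± 1.18 in uterus (SD, n = 4). P4hb made up 24.5% ± 0.481 in brain and 36.1% ± 1.46 in uterus, and thus passed Pdia3 there by this measure. With the longest principal transcript as length, Pdia3 stayed marginally ahead in uterus, at 31.5% against 31.0% for P4hb. The 25 pairs of genes compared as ratios were chosen with earlier results of these data known. The log2 ratio of Pdia3 to P4hb counts within a library needs no length or scaling. It was 0.92 ± 0.038 in brain and -0.022 ± 0.099 in uterus, a difference of -0.94 ± 0.053 (SE; exact permutation test, two-sided, adjusted p = 0.036 over 25 ratios).

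The lectin chaperones calreticulin and calnexin, which hold newly made glycoproteins while they fold, differed from each other. Calr (ENSMUSG00000003814, chromosome 8, 84841850 to 84846934), the soluble one, stood at 465, 552, 468 and 505 CPM in brain and 1074, 1101, 1287 and 1126 CPM in uterus. All uteri were above all brains, with a log2 fold change of 1.21 ± 0.082 (adjusted p = 2.1e-07). Canx (ENSMUSG00000020368, chromosome 11, 50293961 to 50325673), the membrane-bound one, stood at 563, 567, 536 and 554 CPM in brain and 613, 587, 715 and 669.7 CPM in uterus. Its organs did not overlap either, but the difference was 0.22 ± 0.069 (adjusted p = 0.013). It was one of 6 members at like levels. That means that the 95% interval from limma-voom lay wholly within -0.5 to 0.5 on the log2 scale (0.08 to 0.35 for Canx). Of all genes tested, 16.8% were at like levels. These intervals rest on TMM scaling. With library-size scaling the log2 fold change of Canx was 0.48. Within a library the log2 ratio of Calr to Canx was -0.16 ± 0.099 in brain and 0.83 ± 0.066 in uterus; these are ratios of counts, not corrected for length. The difference of 0.99 ± 0.059 passed the exact permutation test (adjusted p = 0.036). Per kilobase of exon Calr was the most abundant member in both organs, at 173 ± 14.0 CPM per kb in brain and 398 ± 33.2 in uterus. Canx came next in brain at 118 ± 2.997. In uterus, at 138 ± 12.2, it also stood behind P4hb, Pdia3 and Pdia6, and overlapped in spread with Pdia6 (150.2 ± 10.5) and Pdia4 (133 ± 14.2). With the longest principal transcript as length, Calr stayed first in both organs and Canx next in brain. In uterus Canx, at 151 CPM per kb, then stood far below Pdia6 (259) and also behind Xbp1, Sec61b, Ssr3 and Spcs1.

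Folding factors that cells induce when unfolded protein builds up were all higher in uterus, and 3 of 4 passed the 2-fold test. Creld2 (ENSMUSG00000023272, chromosome 15, 88819646 to 88826683), a small secreted disulfide-handling protein, stood at 16.8, 22.8, 21.4 and 20.9 CPM in brain and 49.1, 77.3, 77.1 and 64.1 CPM in uterus (1.70 ± 0.15, adjusted p = 1.8e-06). Manf (ENSMUSG00000032575, chromosome 9, 106838312 to 106891979), a secreted protein that binds the chaperone BiP in the ER, stood at 43.4, 47.8, 43.1 and 47.9 CPM in brain and 115, 133, 165 and 139.9 CPM in uterus (1.60 ± 0.10). In both genes uterus library 1 was the lowest uterus and every uterus exceeded every brain. Sdf2l1, part of a BiP chaperone complex, was 15.2 ± 0.934 CPM in brain and 37.5 ± 6.58 in uterus (1.30 ± 0.12). Hyou1, the exchange factor that recharges BiP, was 165 ± 10.5 and 219 ± 37.7 (0.41 ± 0.11, adjusted p = 0.0057). It was the called member whose organs overlapped, since brain library 2 (178 CPM) lay just above uterus library 1 (177 CPM). BiP itself (Hspa5), no member and named after its values were seen, was 510.3 ± 43.7 and 1167 ± 166 CPM (1.19 ± 0.11). Its promoter also holds an ERSE, as do those of Hsp90b1, Dnajc3 and Ero1b (Ero1lb in the count table) of the wider lists. These are 4 of the 142 wider genes with a promoter. Hsp90b1 (1.47 ± 0.082) and Dnajc3 (0.83 ± 0.067) were higher in uterus, and Ero1lb (-1.39 ± 0.096) in brain.

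**Figure D2:**
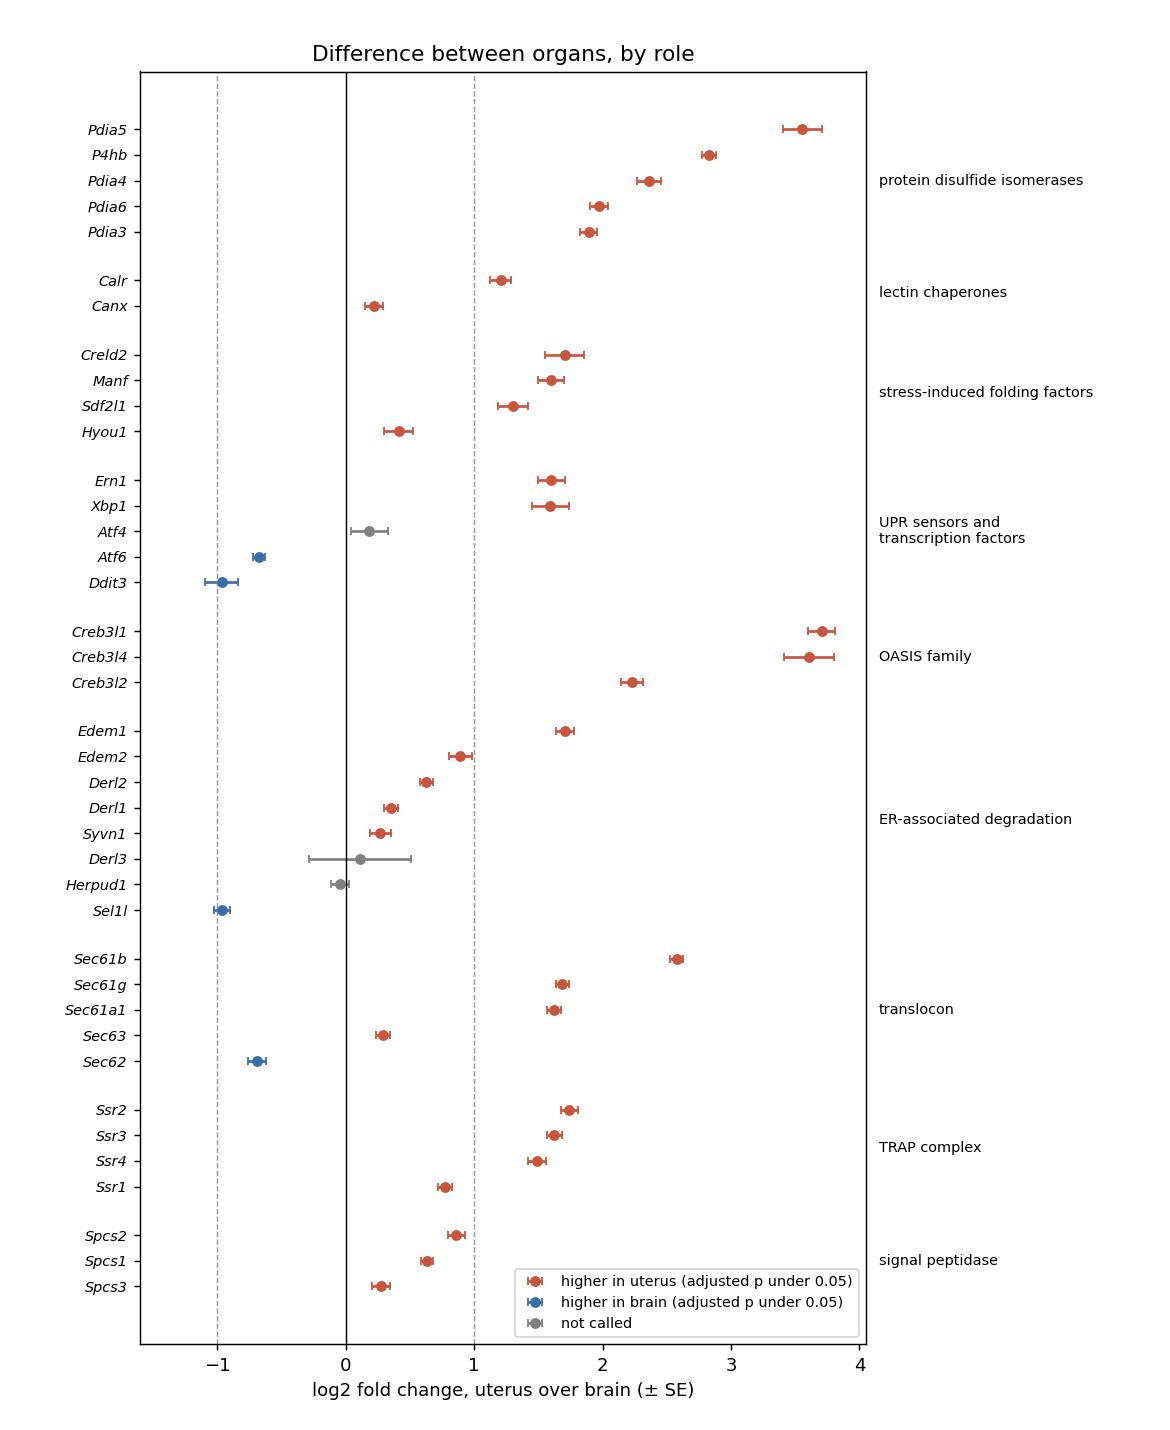
Log2 fold change, uterus over brain, with its SE, for the 39 genes grouped by role; dashed lines mark a 2-fold change. Points are coloured by the edgeR call, and only Atf6, Ddit3, Sel1l and Sec62 are called toward brain, all within the 2-fold lines.

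UPR sensors and transcription factors were split between the organs, with 2 higher in uterus, 2 higher in brain and 1 not called. Ern1 (ENSMUSG00000020715, chromosome 11, 106394650 to 106487852), the IRE1 kinase and endonuclease that splices Xbp1 RNA, stood at 20.7, 20.1, 18.3 and 22.4 CPM in brain and 50.4, 68.9, 61.5 and 66.6 CPM in uterus (1.60 ± 0.10). Xbp1 (ENSMUSG00000020484, chromosome 11, 5520659 to 5525893), which drives the secretory programme of gland and plasma cells, stood at 122, 139, 119 and 126 CPM in brain and 320.3, 496, 403 and 305 CPM in uterus (1.59 ± 0.14, adjusted p = 2.2e-06). Both genes had no overlap between organs, and Xbp1 was uneven among the uteri, highest in library 2 and lowest in library 4. The SD of its log2(CPM + 0.5) over the uteri, 0.323, was exceeded among the members by that of Derl3 alone (0.636). The log2 ratio of Xbp1 to Ern1 was 2.63 ± 0.13 in brain and 2.61 ± 0.28 in uterus, a difference of -0.027 ± 0.16 that did not pass the exact permutation test (adjusted p = 0.91). Counts per gene do not show how much Xbp1 RNA is spliced.

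Atf6 (ENSMUSG00000026663, chromosome 1, 170704674 to 170867771), the sensor that is cut in the Golgi to free a transcription factor, went the other way. It stood at 106, 105, 104 and 108 CPM in brain and 61.8, 70.3, 65.3 and 66.6 CPM in uterus, with all brains above all uteri and a log2 fold change of -0.68 ± 0.048 (adjusted p = 2.9e-07). The log2 ratio of Xbp1 to Atf6 differed by 2.25 ± 0.15 between the organs (exact permutation test, adjusted p = 0.036). Ddit3 (ENSMUSG00000025408, chromosome 10, 127290774 to 127296288) encodes CHOP, the factor of prolonged ER stress. It stood at 25.2, 25.7, 26.2 and 24.9 CPM in brain and 10.7, 12.9, 16.9 and 11.7 CPM in uterus (-0.97 ± 0.13, adjusted p = 4.2e-05), again with no overlap. The 4 brains lay close together and uterus library 3 was the highest of the uteri.

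Atf4 (ENSMUSG00000042406, chromosome 15, 80255184 to 80257541), whose protein is made when PERK or related kinases slow translation, was not called. It stood at 150.1, 116, 165 and 111 CPM in brain and 124, 153, 179 and 159.9 CPM in uterus, and the organs overlapped (0.18 ± 0.15, adjusted p = 0.25). Its limma-voom 95% interval of -0.12 to 0.51 allows a difference toward uterus of up to 0.51 on the log2 scale. Under upper-quartile and library-size scaling it was called higher in uterus (0.44 and 0.44). Relative to Atf4, Ddit3 was lower in uterus, with a log2 ratio of -2.39 ± 0.26 in brain and -3.57 ± 0.15 in uterus (difference -1.18 ± 0.15, exact permutation test, adjusted p = 0.036).

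Plasma cells are rich in Xbp1, so markers of B and plasma cells were read beside it. Their 9 genes summed to 55.2 to 99.5 CPM in uterus and 2.28 to 3.69 CPM in brain, none was at 0 counts in all 4 libraries of an organ, and Jchain alone gave 50.04 to 93.0 CPM of the uterine sums. Gland markers (7 genes) summed to 94.9 to 876 CPM in uterus and 120.2 to 127 CPM in brain, with Cxcl15 at 0 counts in all brains, and Aldh1a1 gave nearly all of the brain sum. The uterine range was set by the proteases Prss28 and Prss29. Prss28 stood at 21.5, 222, 58.7 and 0.653 CPM in uterus libraries 1 to 4 and Prss29 at 46.4, 559, 123 and 2.28 CPM. The other gland markers varied far less, and Cxcl15 (16.6, 18.9, 25.2 and 27.6 CPM) was highest in library 4, where the proteases were lowest. Epithelial markers (8 genes) summed to 746 to 909 CPM in uterus and 6.62 to 9.86 CPM in brain, with none at 0 counts in all 4 libraries of an organ. The part of these cell types in the Xbp1 difference was not tested.

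The OASIS family, transcription factors held in the ER membrane and released by cutting as ATF6 is, had the largest median difference of the 9 role groups. All 3 were higher in uterus and past 2-fold, with a median of 3.61. Creb3l1 (ENSMUSG00000027230, chromosome 2, 91982328 to 92024502), OASIS itself, which activates collagen genes in bone-forming cells, stood at 3.21, 2.56, 2.68 and 2.79 CPM in brain and 36.3, 32.0, 39.7 and 38.7 CPM in uterus. That is a log2 fold change of 3.71 ± 0.11 (adjusted p = 2.7e-10), the largest of the 39. Creb3l4 (ENSMUSG00000027938, chromosome 3, 90237500 to 90243512) was scarce, at 0.405, 0.346, 0.393 and 0.378 CPM in brain and 3.90, 4.77, 4.18 and 5.80 CPM in uterus (3.61 ± 0.20). Its brain values rest on 15 to 17 counts per library. Creb3l2, needed for secretion of matrix by cartilage cells, had the highest level per kilobase of the family in both organs. It was 25.4 ± 2.56 CPM in brain and 119 ± 9.10 in uterus (2.23 ± 0.084).

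The make-up of the family differed too. Per kilobase of exon Creb3l2 made up 72.6% ± 3.59 of the family in brain and 49.2% ± 3.41 in uterus, while Creb3l1 made up 22.6% ± 3.20 and 42.4% ± 3.30. The log2 ratio of Creb3l1 to Creb3l2 differed by 1.47 ± 0.17 and that of Creb3l4 to Creb3l2 by 1.33 ± 0.17 (exact permutation test, adjusted p = 0.036 for each). That of Creb3l1 to Creb3l4 differed by 0.14 ± 0.15 and did not pass (adjusted p = 0.42). With 5 counts added in place of 0.5 it differed by 0.41 ± 0.14 and passed (adjusted p = 0.034), so its call depends on the number of counts added.

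Genes of ER-associated degradation, which recognise misfolded chains and hand them to the ubiquitin system, had mixed directions. Of 8, 5 were higher in uterus, 1 higher in brain and 2 not called, with a median of 0.31, and Edem1 alone passed the 2-fold test. Their summed level was 608 ± 8.57 CPM in brain and 633 ± 42.0 in uterus, while the isomerases summed to 611 ± 26.6 and 2887 ± 117. Edem1 (ENSMUSG00000030104, chromosome 6, 108828641 to 108859356), a mannosidase-like protein that marks glycoproteins for degradation, stood at 36.3, 33.6, 31.5 and 37.2 CPM in brain and 105, 119, 121 and 108 CPM in uterus (1.71 ± 0.072, adjusted p = 4.8e-09). Its paralog Edem2 was 27.0 ± 0.833 and 50.04 ± 6.65 CPM (0.89 ± 0.09), and the log2 ratio of Edem1 to Edem2 differed by 0.83 ± 0.088 (exact permutation test, adjusted p = 0.036).

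The ubiquitin ligase at the core of this system was split. Sel1l (ENSMUSG00000020964, chromosome 12, 91806043 to 91849157), the adaptor that brings substrates to the ligase, stood at 273, 264, 274 and 289 CPM in brain and 133, 134, 154 and 142 CPM in uterus. All brains were above all uteri (-0.96 ± 0.06, adjusted p = 9.7e-08). Syvn1, the ligase HRD1 itself, was 67.2 ± 3.52 and 80.9 ± 9.60 CPM, slightly higher in uterus (0.27 ± 0.083, adjusted p = 0.012) and at like levels by its interval (0.079 to 0.44). Within a library the log2 ratio of Sel1l to Syvn1 was 2.03 ± 0.10 in brain and 0.81 ± 0.12 in uterus. Their difference of -1.23 ± 0.079 passed the exact permutation test (adjusted p = 0.036). Herpud1 (ENSMUSG00000031770, chromosome 8, 94386438 to 94395377), a ubiquitin-like membrane protein that organises the ligase complex, was not called. It stood at 74.4, 74.6, 77.1 and 71.9 CPM in brain and 64.9, 82.2, 72.6 and 69.0 CPM in uterus (-0.045 ± 0.071, adjusted p = 0.56), its organs overlapped, and its interval of -0.20 to 0.10 put it among the like levels. The sign turned toward uterus without uterus library 1, and with library-size or upper-quartile scaling (0.21 for each), under which it was called.

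Derlins are membrane proteins of the exit channel. Derl1 was 86.5 ± 4.22 CPM in brain and 110.4 ± 5.47 in uterus (0.35 ± 0.054, at like levels with an interval of 0.23 to 0.47), and Derl2 41.1 ± 1.44 and 63.4 ± 2.71 (0.63 ± 0.051). Their log2 ratio differed by -0.28 ± 0.055 (exact permutation test, adjusted p = 0.036). Derl3 (ENSMUSG00000009092, chromosome 10, 75893413 to 75895941), the derlin of strongly secretory cells such as plasma cells and pancreas, was scarce in both organs. It stood at 1.62, 2.79, 1.48 and 3.03 CPM in brain and 1.13, 4.28, 2.05 and 2.14 CPM in uterus, with wide overlap (0.11 ± 0.40, adjusted p = 0.8). Its interval of -0.85 to 0.90 does not show like levels. Leaving out uterus library 2 turned its difference to -0.32, and the sign also turned without brain library 3 or, separately, without brain library 1.

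**Figure D3:**
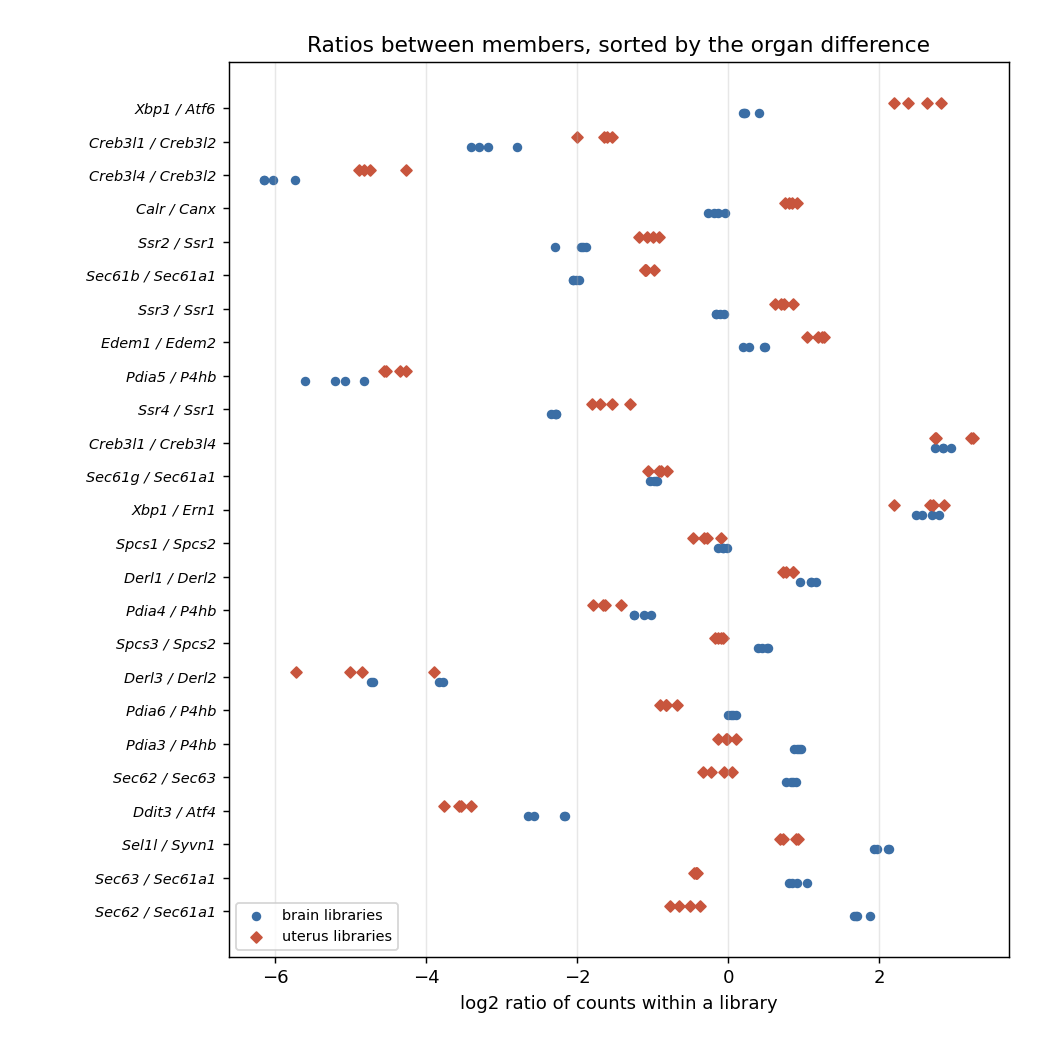
Log2 ratio of the counts of 2 genes within each library, for 25 pairs, in brain (circles) and uterus (diamonds), sorted by the difference between the organs. The organs do not overlap for 20 pairs, from Xbp1 to Atf6 at the top to Sec62 to Sec61a1 at the bottom. The share among other pairs of genes was not computed.

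The protein-conducting channel differed subunit by subunit. The 3 subunits of the Sec61 channel were higher in uterus and past 2-fold. Sec61b (ENSMUSG00000053317, chromosome 4, 47474658 to 47483242), the small beta subunit, stood at 15.7, 17.4, 16.8 and 17.3 CPM in brain and 100.3, 100.3, 104 and 96.7 CPM in uterus (2.58 ± 0.053, adjusted p = 3.0e-11). Sec61g (ENSMUSG00000078974, chromosome 11, 16500530 to 16508484), the gamma subunit, stood at 34.0, 36.2, 35.3 and 33.2 CPM and 113, 116, 106 and 110.0 CPM (1.68 ± 0.05). Sec61a1, which forms the pore, was 68.5 ± 2.28 CPM in brain and 211 ± 10.3 in uterus (1.62 ± 0.051). All uteri lay above all brains for each of the 3.

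Relative to the pore gene, the gamma subunit did not pass the test between organs (0.064 ± 0.057, exact permutation test, adjusted p = 0.34), while the beta subunit was higher in uterus by 0.96 ± 0.035 (adjusted p = 0.036). Sec62 and Sec63 serve short or slowly entering chains at the channel. Sec62 (ENSMUSG00000027706, chromosome 3, 30792875 to 30821263) was the member of this group higher in brain, at 239.9, 228, 228 and 217 CPM there and 139, 127, 141 and 159 CPM in uterus (-0.69 ± 0.071, adjusted p = 5.9e-06). Sec63 was 128 ± 4.88 and 156 ± 8.95 CPM (0.29 ± 0.054), called toward uterus and at like levels (0.17 to 0.40). Relative to Sec61a1, Sec62 differed by -2.32 ± 0.098 and Sec63 by -1.33 ± 0.052 (exact permutation test, adjusted p = 0.036 for each). Per kilobase of exon Sec62 made up 50.3% ± 1.19 of the 5 genes in brain and 15.8% ± 1.52 in uterus. Sec61b made up 12.6% ± 0.765 and 38.3% ± 0.949. With the longest principal transcript as length, Sec62 made up 38.7% and 9.76% and Sec61b 20.03% and 48.6%, in the same directions.

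The translocon-associated TRAP complex, which helps weakly gated chains through the channel, had all 4 genes higher in uterus and 3 past 2-fold. Ssr2 (ENSMUSG00000041355, chromosome 3, 88575876 to 88588419), its beta subunit, stood at 40.2, 49.5, 47.2 and 47.2 CPM in brain and 156, 156, 148 and 155 CPM in uterus (1.74 ± 0.066). Ssr3 (ENSMUSG00000027828, chromosome 3, 65379655 to 65392623), its gamma subunit, stood at 182, 164, 171 and 163 CPM and 503, 536, 514 and 543 CPM (1.62 ± 0.056, adjusted p = 1.1e-09). Neither gene overlapped between the organs. The delta subunit gene Ssr4 was 37.6 ± 0.95 and 105 ± 10.1 CPM (1.49 ± 0.069). Ssr1, the alpha subunit, was 186 ± 8.32 and 317 ± 17.5 (0.77 ± 0.057) and differed least. Relative to Ssr1 the other subunits were higher in uterus by 0.97 ± 0.11 for Ssr2, 0.85 ± 0.055 for Ssr3 and 0.71 ± 0.11 for Ssr4 (exact permutation test, adjusted p = 0.036 for each).

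Signal peptidase accessory subunits had the smallest median difference among the 6 role groups in which every gene was higher in uterus (0.64), and all 3 log2 fold changes were under 1. Spcs2 (ENSMUSG00000035227, chromosome 7, 99837569 to 99863462) stood at 73.8, 73.0, 74.1 and 71.5 CPM in brain and 116, 132, 143 and 139 CPM in uterus (0.86 ± 0.064, adjusted p = 4.3e-07). Spcs1 (ENSMUSG00000021917, chromosome 14, 30999826 to 31001672) stood at 67.2, 69.6, 73.4 and 67.9 CPM and 108, 109, 104 and 111 CPM (0.64 ± 0.046). Both were without overlap between the organs. Spcs3 was 101 ± 5.49 and 122 ± 10.8 CPM (0.28 ± 0.069, at like levels with an interval of 0.12 to 0.43). The log2 ratio of Spcs3 to Spcs2 differed by -0.58 ± 0.039 (exact permutation test, adjusted p = 0.036), and that of Spcs1 to Spcs2, at -0.22 ± 0.079, did not pass (adjusted p = 0.068).

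Over all 25 ratios, 20 passed the exact permutation test with adjustment over the 25, each at the smallest p that 4 libraries against 4 can give (0.0286, or 0.0357 adjusted). The test gives this smallest p whenever the libraries of the organs do not overlap. Of all genes tested, 42.0% lay wholly higher in uterus and 42.0% wholly higher in brain. The share among pairs of genes at large was not computed, so 20 of 25 has no background beside it. The pairs were chosen with earlier results of these data known, and adjustment over the 25 does not cover that choice. A ratio also restates the gap between the log2 fold changes of its genes, so its passing adds no independent support to them. Ratios between genes show unequal differences and not which gene moved. For Pdia4, Pdia5 and Pdia6 against P4hb the differences were -0.47 ± 0.096, 0.75 ± 0.18 and -0.86 ± 0.054, each passing. The largest were those of Sec62 to Sec61a1 and of Xbp1 to Atf6.

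The median SD of log2(CPM + 0.5) of the members over 4 libraries was 0.0705 in brain and 0.127 in uterus. Over all genes tested it was 0.0964 and 0.125. Members and all genes tested were not matched for level, so these medians are not like for like. Among the uteri, library 3 was the highest for 21 of 39 members (21.9% of all genes tested) and library 1 the lowest for 24 of 39 (22.9% of all genes tested). The role groups varied to unequal degrees. Stress-induced folding factors deviated from the uterine mean by -0.29, 0.057, 0.28 and -0.053 in libraries 1 to 4 on the log2 scale, and the sensors and transcription factors by -0.23, 0.13, 0.14 and -0.045. Genes of ER-associated degradation deviated by -0.19, 0.17, 0.073 and -0.061, about as widely as the sensors. The translocon deviated by -0.039, -0.0031, 0.028 and 0.014 and the TRAP complex by -0.013, 0.034, -0.034 and 0.013. The folding factors and the genes of the channel thus varied on different scales among the same 4 animals, though this difference was not tested.

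Gland markers deviated on average by -0.30, 0.99, 0.56 and -1.24 in uterus libraries 1 to 4, mostly through Prss28 and Prss29, and dividing cell markers by 0.039, 0.35, -0.66 and 0.27. Xbp1 had the same order of libraries as Prss28 and Prss29, lowest in library 4 and then 1, 3 and 2. That order was not particular to these genes. Smooth muscle markers also had it on average (-0.078, 0.14, 0.11 and -0.18 in uterus libraries 1 to 4), as did Derl1 (109, 116, 113 and 103 CPM). None of the other 5 gland markers kept that order: Cxcl15 and Aldh1a1 were highest in library 4, and Foxa2, Lif and Wfdc3 in library 3. In contrast to Xbp1, the folding factors were lowest in library 1 and highest in library 3. The part of gland cells, smooth muscle and dividing cells in these deviations was not tested. In brain the folding factors deviated by -0.13, 0.11, -0.017 and 0.035, lowest in library 1 and highest in library 2. Dividing cell markers deviated by 0.41, 0.047, -0.38 and -0.076 in brain libraries 1 to 4, and macrophage markers by 0.35, -0.18, -0.13 and -0.046.

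**Figure D4:**
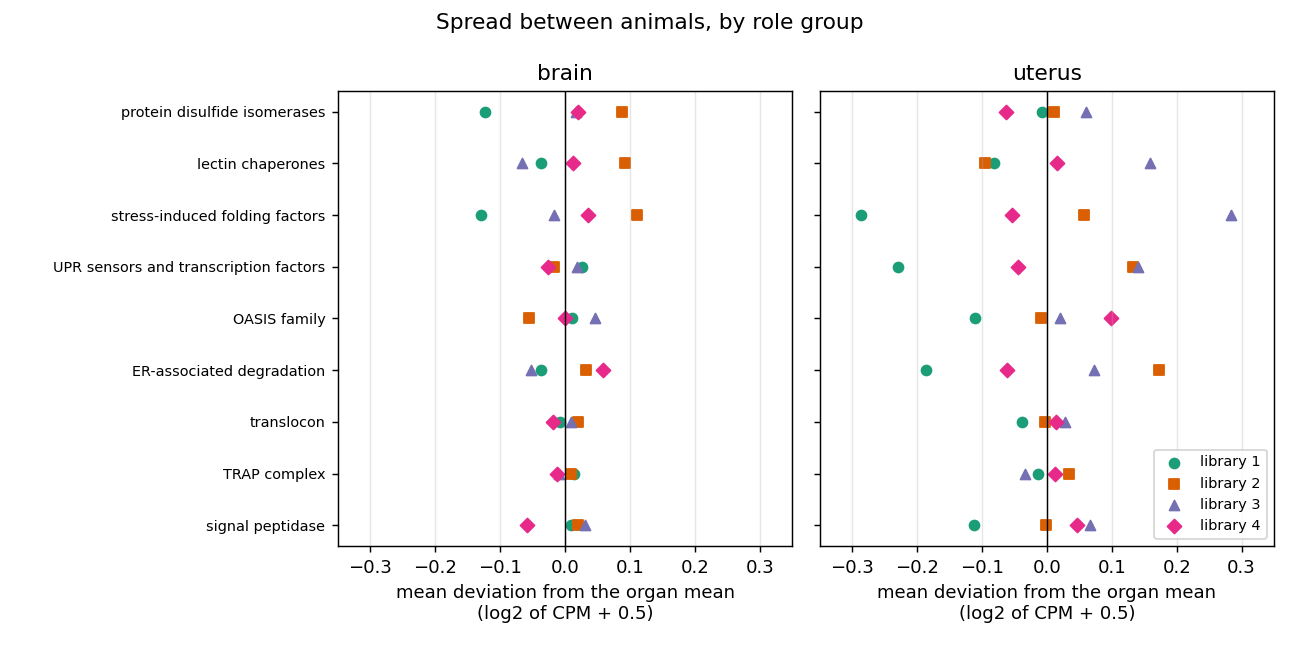
Mean deviation of each role group from its organ mean, in log2(CPM + 0.5), for the 4 brain libraries (left) and the 4 uterus libraries (right). In uterus the stress-induced folding factors run from -0.29 in library 1 to 0.28 in library 3, while the TRAP complex stays within -0.034 to 0.034.

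Other genes of the pathway, from 9 lists, were read in the same fit. Of 169 genes tested, 101 were higher in uterus, 47 in brain and 21 were not called, with a median log2 fold change of 0.46. With library-size or upper-quartile scaling 118 were higher in uterus and 36 in brain, so counts by list depend on the scaling. Counts by list are to be read against the 43.5% and 43.6% of all genes tested that were called toward uterus and brain. The lists of UPR signalling, entry into the ER and further ER-associated degradation held 45%, 47.6% and 45.5% called toward uterus, near that share, and 30%, 38.1% and 45.5% toward brain. Among ER chaperones and cochaperones, 14 of 17 genes tested were higher in uterus, 3 in brain and 0 were not called, with a median log2 fold change of 1.15. Serpinh1, the collagen chaperone HSP47, was 34.2 ± 2.18 CPM in brain and 1817 ± 133 in uterus (5.73 ± 0.09), and Fkbp10, another collagen-folding gene, 6.03 ± 0.695 and 114 ± 5.92 (4.24 ± 0.088). Clgn, a calnexin relative, was higher in brain, at 27.3 ± 1.64 and 0.205 ± 0.127 (-7.03 ± 0.25), as was Fkbp2 (-0.77 ± 0.069). Among oxidoreductases, 8 of 15 genes tested were higher in uterus, 6 in brain and 1 was not called, with a median log2 fold change of 0.28. Txndc5 (2.59 ± 0.053) and the ER peroxiredoxin Prdx4 (2.20 ± 0.094) led toward uterus, and the membrane thioredoxin relatives Tmx4 (-3.12 ± 0.061) and Tmx2 (-1.97 ± 0.048) toward brain.

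For UPR signalling, 9 of 20 genes tested were higher in uterus, 6 in brain and 5 were not called, with a median log2 fold change of 0.39. The transcription factor genes Atf3 (0.99 ± 0.272 and 9.15 ± 3.46 CPM, 3.21 ± 0.31) and Cebpb (2.60 ± 0.16) led toward uterus. Chac1, a glutathione-degrading enzyme gene that ATF4 induces (6.87 ± 2.17 and 0.752 ± 0.361 CPM, -3.18 ± 0.35), and Wfs1, the ER membrane protein wolframin (-2.02 ± 0.066), led toward brain. In the list of amino acid genes linked to ATF4, 3 of 13 genes tested were higher in uterus, 6 in brain and 4 were not called, with a median log2 fold change of -0.10. Nupr1 (2.03 ± 0.15) and Shmt2 (1.62 ± 0.058) were higher in uterus, and the cystine carrier gene Slc7a11 (-2.75 ± 0.42) and the serine synthesis gene Psat1 (-1.14 ± 0.074) in brain. Among further genes of ER-associated degradation, 10 of 22 genes tested were higher in uterus, 10 in brain and 2 were not called, with a median log2 fold change of -0.069. The leading genes were Vimp (0.66 ± 0.067) and Ube2g2 (0.64 ± 0.069) toward uterus and Ube2j1 (-0.86 ± 0.053) and Tmub1 (-0.83 ± 0.09) toward brain. The even split held under TMM: with library-size or upper-quartile scaling Os9 and Erlec1 were also called toward uterus, and Ufd1l and Nploc4 were not called.

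In N-glycosylation and glucose trimming, 16 of 20 genes tested were higher in uterus, 3 in brain and 1 was not called, with a median log2 fold change of 0.91. Stt3a, a catalytic subunit of the sugar-transferring enzyme (2.03 ± 0.05), and Magt1 (1.87 ± 0.081) led toward uterus, and Tusc3 (-1.84 ± 0.055) and Alg2 (-1.70 ± 0.053) toward brain. In signal recognition and other steps of entry, 10 of 21 genes tested were higher in uterus, 8 in brain and 3 were not called, with a median log2 fold change of 0.10. Tram2 (3.90 ± 0.16) and the signal peptidase catalytic gene Sec11a (2.20 ± 0.042) led toward uterus, and Emc4 (-1.22 ± 0.048) and Wrb (-0.97 ± 0.054) toward brain. Export from the ER by COPII vesicles leaned toward uterus, where 20 of 26 genes tested were higher in uterus, 2 in brain and 4 were not called, with a median log2 fold change of 0.90. Sec16b (4.02 ± 0.14) and Sec24d, a cargo adaptor of collagen export (2.97 ± 0.053), led, against Sec23a (-0.79 ± 0.06) and Sar1b (-0.49 ± 0.075). Retrieval by COPI did too: 11 of 15 genes tested were higher in uterus, 3 in brain and 1 was not called, with a median log2 fold change of 0.83. Kdelr3, a receptor that returns escaped ER proteins, was 0.729 ± 0.149 CPM in brain and 60.2 ± 5.38 in uterus (6.37 ± 0.13), and Copz2 differed by 3.66 ± 0.12, against Copg2 (-1.20 ± 0.067) and Copg1 (-0.66 ± 0.046).

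**Figure D5:**
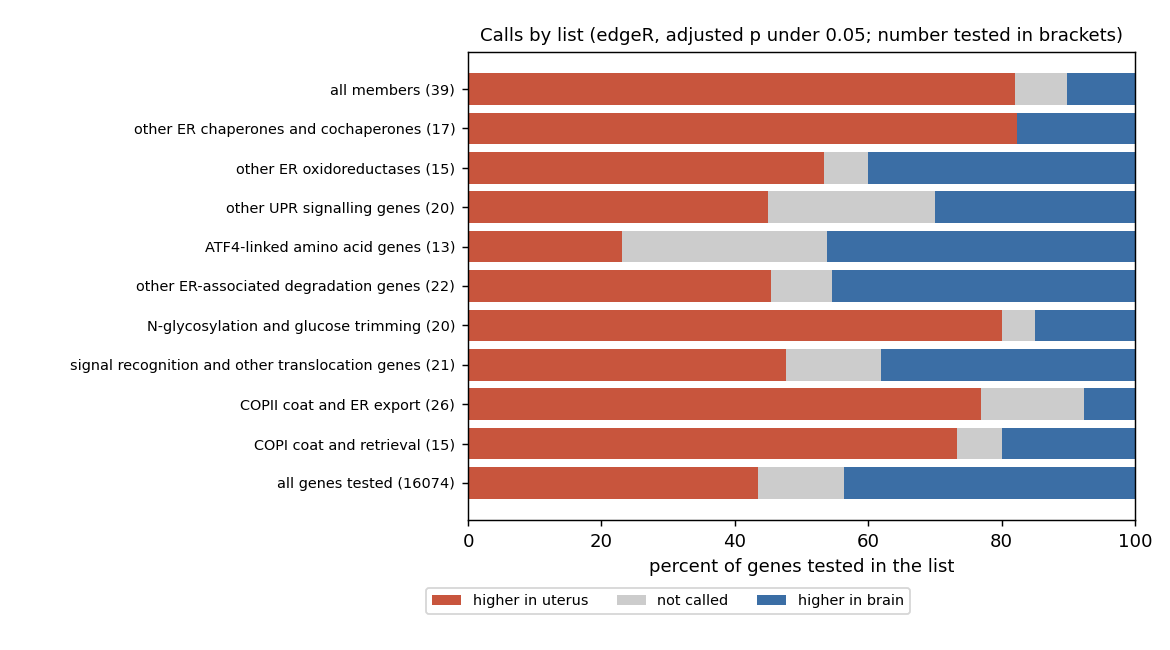
Percent of the genes tested in each list that were called higher in uterus, higher in brain or neither (edgeR, adjusted p under 0.05), with the 39 members at the top and all 16074 genes tested at the bottom. ER chaperones, N-glycosylation, COPII and COPI lean toward uterus, and the further ER-associated degradation genes are split 10 to 10, close to the split of all genes tested.

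Scaling bears on the small differences. Over all genes the median difference was 0.012, and it became 0.27 with library-size or with upper-quartile scaling; with the latter 8182 genes were called in uterus and 5966 in brain. The members' median moved with it, to 1.56, and 34 members were then higher in uterus and 4 in brain. Some members share exons or near-identical copies with other genes, and the strand setting of the counting is not given in the sources used here. Exons share bases with a gene on the opposite strand for Spcs1 (252 nt, Glt8d1), Derl2 (231 nt, Mis12), Syvn1 (91 nt, Mrpl49), Spcs3 (75 nt, Asb5), Ddit3 (68 nt, Mars), Pdia6 (50 nt, Atp6v1c2) and Pdia3 (18 nt, Catsper2). Manf shares 160 nt with Dcaf1 (opposite strand) and Rbm15b (same strand). Sequence is also shared at the same locus with genes outside the count table. These are 4933429H19Rik for Sec62 (513 nt, antisense), Gm44170 for Sec61a1 (392 nt, antisense) and Gm26860 for Sec63 (174 nt). Manf likewise shares 166 nt with the antisense 4930524O07Rik, and Ssr2 194 nt with the pseudogene Gm10704. Further loci overlap genes outside the count table without such a stretch. Among them is Ddit3, with Gm4189 and another entry named Ddit3. Exon bases shared with genes outside the count table were not measured. Sec61b has a near copy in Gm10320, Sec61g in 3 pseudogenes and Ssr2 over 366 nt in Rtraf, so their counts are uncertain by the reads that cannot be told apart.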

How the data were processed

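Per the labels' protocols, libraries were made from total RNA with a stranded kit that removes ribosomal RNA. Per the submitters' processing notes, FastQC, HISAT2 2.0.3, featureCounts and edgeR were used with GRCm38.p5; nothing used here gives the annotation release, strand setting or handling of multi-mapping reads. The authors deposited raw counts per gene in 1 column per library, not normalized. The genes, role groups, wider lists, ratio pairs and tests were chosen with earlier results of these data known. Counts were filtered with filterByExpr by organ (16074 genes left), scaled by TMM and tested with edgeR 4.0.16 (R 4.3.3), quasi-likelihood F test, two-sided, Benjamini-Hochberg over all genes tested, threshold 0.05, and glmTreat for a 2-fold change. Log2 fold changes carry SE, the unshrunken log2 fold change over the square root of F. Values are mean CPM ± SD, n = 4. Levels per kilobase use all exons of a gene; exons and positions come from GENCODE M21 (GRCm38), where all 39 identifiers were found. Ratios within a library used counts + 0.5 and an exact permutation test (70 rearrangements). Like levels came from limma-voom (limma 3.58.1). Other runs used DESeq2 1.42.0, other scalings and filters, a block for replicate number, and each library left out. Copies were searched with BLAST+ 2.17.0 (98% identity, 150 nt). Promoters are RefSeq's. The edgeR procedure was tested on simulated data in which few genes changed, evenly in both directions. That setting is unlike these organs, so the test does not bear on the choice of scaling.

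Every member is named. Values per library were set for the 2 called members with the largest change in each role group, for members not called and for those whose call or direction a scaling changed; they were added for Atf6, Ddit3 and Sec62 after the values were seen. In each wider list the rule names, per direction, the 2 called genes that differed most, given a mean of 5 CPM in the organ where they are higher. Of 176 listed wider genes, 172 had an entry and 169 passed the filter. Replicate numbers are not tied to a mouse by the labels, so no block was in the fit; p-values measure the spread between these libraries. Counts without molecular identifiers are not independent molecules.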

Additional observations from a re-analysis of the deposited data

Results flagged for a closer look

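In 2 of 78 groups of 4 libraries, 1 library lay far from the other 3 relative to the whole range of the group. Chance flags about 1 in 20 such groups. P4hb stood at 147 CPM in brain library 2, against 136, 137 and 135 CPM in the other brains. Ssr2 stood at 148 CPM in uterus library 3, against 156, 156 and 155 CPM in the other uteri.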

How the results depend on the processing

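Calls of 36 of the 39 members kept direction and side of the threshold in all 17 other fits, the exceptions being Atf4, Derl3 and Herpud1. In each of them 32 to 34 members were higher in uterus, 4 in brain, and 21 to 23 past 2-fold in uterus where that was tested. At an adjusted p under 0.01, 30 were higher in uterus, and Canx and Syvn1 were lost. The members' median log2 fold change, 1.30, was 1.56 under both upper-quartile and library-size scaling. It ran from 1.18 (without uterus library 3) to 1.38 (without uterus library 1) with 1 library left out, and was 1.38 when brain library 1 and uterus libraries 2 and 4 were dropped together, a fit chosen after seeing the data. Only 1 member stayed at like levels, against 6, with bounds of 0.3. Like levels were read under TMM alone. With library-size scaling the log2 fold changes of Derl1, Sec63, Spcs3 and Syvn1 were 0.61, 0.55, 0.53 and 0.53, outside the bound of 0.5. Herpud1 turned from -0.045 to 0.21 with upper-quartile or library-size scaling. Without uterus library 1 it turned to 0.018 (-0.11 to 0.018 over single libraries left out). Derl3 turned from 0.11 to -0.0055 without brain library 1, -0.039 without brain library 3, -0.32 without uterus library 2 and -0.59 with the 3 dropped (-0.32 to 0.36 over single ones); the cause was not tested. With the replicate block the median was 1.29 and 36 members were called; it changed no call. Same-numbered libraries did not deviate together (correlations across genes -0.048 to 0.083), so the numbers are not taken to pair them; brain libraries 3 and 4 correlated best with the uterus of their own number, and 1 and 2 did not. Among 148 wider genes called, 5 changed direction under a scaling (Creb3, Cars, Nploc4, Uggt2 and Sec11c). More changed call: with library-size or upper-quartile scaling 118 were called toward uterus and 36 toward brain, in place of 101 and 47. With 5 counts added, 21 ratios passed, the added one being Creb3l1 to Creb3l4. With 1 library left out the exact test cannot go below 0.0571, so it was not run; 24 of 25 ratios kept their sign in all 8 cases. Motif matches in members were the same without the bases after the start. Depth limits mainly Derl3 and Creb3l4.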

Other observations

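Paralogs of the wider pathway, named after their values were seen, differed between the organs pair by pair. Magt1 and Tusc3 encode alternative subunits of the same sugar-transferring complex. Magt1 was 30.2 ± 1.03 CPM in brain and 111 ± 12.4 in uterus, and Tusc3 155 ± 5.50 and 43.3 ± 2.56. Of the pore genes, Sec61a1 was higher in uterus (1.62 ± 0.051) and Sec61a2 in brain, at 61.3 ± 4.21 and 39.9 ± 1.97 CPM (-0.62 ± 0.063). Among cargo adaptors of the COPII coat, Sec24d differed by 2.97 ± 0.053, while Sec24a (0.15 ± 0.084), Sec24b (0.26 ± 0.06) and Sec24c (0.32 ± 0.044) lay close together. Of the inner coat genes, Sec23a was higher in brain (-0.79 ± 0.06) and Sec23b in uterus (1.41 ± 0.15). KDEL receptor genes were all higher in uterus, by 1.46 ± 0.048 for Kdelr1, 2.45 ± 0.059 for Kdelr2 and 6.37 ± 0.13 for Kdelr3. The oxidases that recharge the isomerases went against them: Ero1l was 85.6 ± 4.20 CPM in brain and 51.2 ± 2.67 in uterus (-0.74 ± 0.055), and Ero1lb 29.3 ± 2.56 and 11.2 ± 1.15 (-1.39 ± 0.096). No test of the difference between paralogs was run here.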
